A study of Homo sapiens with 36 samples.

Results

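The 42 genes described here act in mitosis and at the kinetochore. They were listed by function, with earlier results of these data known. Each was read from a probe set that carries 1 gene symbol. All 42 passed the filter on dim genes and are among the 15294 genes tested, of 19775 genes with such a probe set. The question was how their RNA differs between pseudopods and cell bodies in each of 6 human cancer cell lines, and how the genes of the large proteins ASPM, CENPE and CENPF compare with those of small ones. Cells of each line were cultured for 24 h on porous filters, and pseudopods (PS), the protrusions that had passed to the lower side, were scraped off apart from the cell bodies (CB) on the upper side. U87 and U251 are glioblastoma lines and HT1080 is a fibrosarcoma line, all 3 grown in DMEM. DU145, a prostate carcinoma line, MDA231, a breast carcinoma line, and MDA435, a line described as breast cancer whose melanocytic origin is disputed, were grown in RPMI-1640. All lines had 10% fetal bovine serum in the medium, and the labels name no added drug and no engineered allele. Each line and fraction has 3 arrays, which gives 18 pseudopod and 18 cell body arrays, and the labels do not say whether the 3 came from separate cultures, so p-values measure the spread between these arrays, which may be technical.

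In mitosis the chromosomes attach to spindle microtubules through the kinetochore, a protein assembly on the centromere. Its inner part, built on the histone variant CENPA, holds the outer part, whose NDC80 complex binds the microtubule. The spindle checkpoint delays anaphase until all kinetochores are attached, and the chromosomal passenger complex corrects wrong attachments and later acts in cytokinesis. Most of these genes are transcribed late in the cell cycle, so in growing cultures their RNA is known to rise toward G2 and mitosis.

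The lines were set against lineage markers first. U251 showed the neural gene SOX2 at a mean of 1766 intensity units in pseudopods and 1879 in cell bodies, whereas U87 showed 8.73 and 13.6, and GFAP was also below the floor of 24.4 units in both U87 fractions (5.93 and 7.13). Other glial and neural genes were above the floor in U87, SLC1A3 at 189 and 627, NES at 73.9 and 178, PDGFRA at 59.7 and 165, and FABP7 at 62.7 and 46.8. MDA435 showed the melanocytic genes SOX10 (1452 and 1485), S100B (2676 and 2128), MITF (2038 and 1827) and TYR (215 and 605). MITF and TYR were above the floor in the other lines as well, at lower means. In MDA435 TYRP1 was near the floor (32.3 and 27.9), while PMEL (23.1 and 22.5) and MLANA (15.5 and 14.3) were below it. Of the blood cell markers, PTPRC lay between 3.43 and 13.9 in all 12 groups and CD14 between 0.8 and 58.7, while CD3E (25.4 to 61.7) and HBB (49.8 to 96.8) were above the floor in every group. Of the whole lists, 2 of 10 epithelial genes were higher in pseudopods and 1 lower, 1 of 8 melanocytic genes higher and 3 lower, 0 of 9 glial and neural genes higher and 5 lower, and 0 of 3 blood cell genes higher and 1 lower. The summed glial and neural level in U251 was 11640.4 to 14263 in pseudopods, against 15517 to 17166 in cell bodies, and the summed epithelial level in MDA231 was 8255 to 14112, against 6802 to 13555. Their part in the results was not tested. Replicate arrays differed in 3 lines in the epithelial genes CDH1 and EPCAM. In MDA231, CDH1 read 4.5, 13.7 and 1299 on pseudopod arrays 1, 2 and 3, against 8.2, 1778 and 2.2 on the cell body arrays. In MDA435 it read 2073, 922 and 33.2 in pseudopods, against 32.8, 1044 and 2463 in cell bodies. In DU145 it read 319, 1489 and 1350.0 in pseudopods, against 2237, 2020.0 and 857 in cell bodies. So 6 arrays stand apart within their groups (MDA231 PS 3 and CB 2, MDA435 PS 3 and CB 1, DU145 PS 1 and CB 3), and the main results are given with and without them. The labels give no reason, and whether these arrays hold cells of another line or a mixture was not tested, so each value of MDA231, MDA435 and DU145 belongs to the libraries with those labels. In MDA435 the arrays left out, PS 3 and CB 1, are those low in CDH1 and high in SOX10 (2002 and 2450.1), while the 4 kept read 922 to 2463 for CDH1 and 884 to 1267 for SOX10. Leaving out the 6 arrays is therefore not shown to give the purer set.

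Averaged over the 6 lines, 18 of the 42 genes were higher in pseudopods, 6 were lower and 18 did not pass the test (limma, Benjamini-Hochberg adjusted p under 0.05). Of all genes tested, 29.7% were higher and 20.8% lower, against 42.9% and 14.3% of the members. The members were chosen with earlier results of these data known. Their shares therefore describe these 42 genes and are no evidence about mitotic genes as a class. The median log2 change of the members was 0.16, against 0.05 over all genes. The largest rises belonged to CENPH, the inner kinetochore subunit (2.11-fold), MYBL2, the transcription factor of late cell cycle genes (1.87-fold), and CENPN, which recognises the CENPA nucleosome (1.61-fold). The largest falls belonged to ASPM, which holds microtubules at spindle poles (1.89-fold lower), ANLN, the scaffold of the contractile ring (1.77-fold lower), and CENPF, a large protein of the outer kinetochore (1.53-fold lower). Each array holds the pooled RNA of a fraction scaled to a common mean, so fewer cells with such RNA and less RNA per cell cannot be told apart. Without the 6 arrays that stand apart, 20 members were higher (30% of all genes) and 4 lower (21.6%): CENPE and INCENP no longer passed the test, and AURKB and CCNB2 did. With the 6 lines as units, 18 were higher (29.2% of all genes) and 6 lower (19.5%): AURKB and MKI67 were called there, RACGAP1 and CENPE were not. With equal array medians, which moved the median of all genes to 0.15, 25 were higher (41.3% of all genes) and 4 lower (16.4%). A log2 change is of log2(intensity + 16), pseudopod minus cell body, with its standard error (SE); a fold is on that scale.

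**Figure D1:**
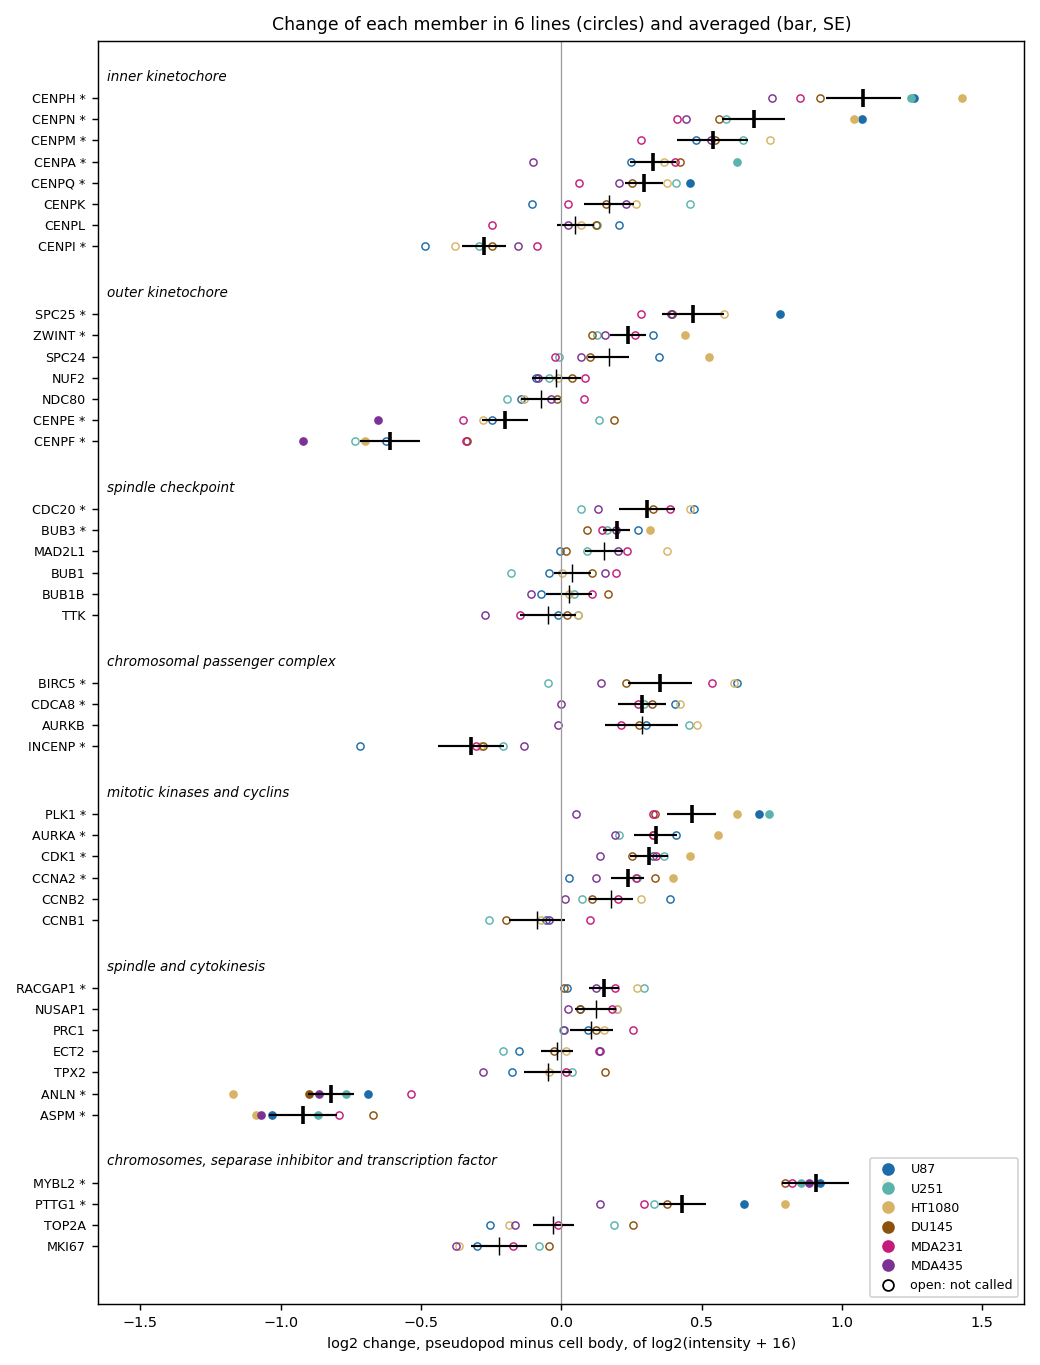
Log2 change of each of the 42 genes, pseudopod minus cell body, in the 6 lines (circles, filled where called) and averaged (bar with SE), by role; a star marks a gene called in the average. CENPH, MYBL2 and CENPN lie right of 0 in all 6 lines, and ASPM, ANLN and CENPF lie left of it in all 6.

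The promoters of the genes were set beside these changes, since late cell cycle genes are known for a pair of promoter elements. One is the cell cycle genes homology region, to which the MuvB complex binds, alone or with the MYBL2 protein; the other is the CCAAT box, bound by NF-Y. RefSeq promoters of GRCh38.p14, from 250 bases before to 50 after the gene start, were found for 33 of the 42 genes. Of the homology region, the form TTTGAA was present on either strand in 66.7% of the members' promoters and in 15.6% of all 27305 promoters, 1 a gene. Where a gene had several entries, the first in sorted order was taken, which need not be its main start. The form TTTAAA was present in 30.3% and 12.4%, and the box CCAAT in 78.8% and 35.6%, each motif being counted also where it overlaps another. A CCAAT box together with a homology region was held by 60.6% of the members and 9.6% of all promoters. Among members with a promoter, that pair was held by 9 of the 12 higher genes, 3 of the 6 lower ones and 8 of the 15 not called. A match is a description of letters and not of a bound site. The promoters of 2 genes that were higher, MYBL2 and PLK1, and of 2 that were lower, ASPM and CENPF, are shown because these genes moved in opposite directions while 3 of the 4 hold both kinds of motif. Capitals mark both forms of the homology region and the CCAAT box, on either strand; the MYBL2 window holds none, which says only that these letters are not in it.
MYBL2 (chr20:43666864-43667163, plus strand): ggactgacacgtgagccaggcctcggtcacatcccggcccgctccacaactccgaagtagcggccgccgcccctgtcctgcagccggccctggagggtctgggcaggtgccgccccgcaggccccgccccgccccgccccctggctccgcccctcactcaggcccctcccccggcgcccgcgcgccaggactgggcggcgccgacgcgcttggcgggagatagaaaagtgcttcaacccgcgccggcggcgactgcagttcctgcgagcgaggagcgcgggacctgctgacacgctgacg
PLK1 (chr16:23678639-23678938, plus strand): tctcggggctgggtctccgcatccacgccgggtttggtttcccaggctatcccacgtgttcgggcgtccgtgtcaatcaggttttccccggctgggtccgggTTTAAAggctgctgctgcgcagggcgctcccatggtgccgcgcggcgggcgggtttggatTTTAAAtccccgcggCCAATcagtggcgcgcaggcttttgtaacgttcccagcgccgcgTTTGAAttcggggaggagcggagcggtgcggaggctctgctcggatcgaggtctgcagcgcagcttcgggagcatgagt
ASPM (chr1:197146620-197146919, minus strand): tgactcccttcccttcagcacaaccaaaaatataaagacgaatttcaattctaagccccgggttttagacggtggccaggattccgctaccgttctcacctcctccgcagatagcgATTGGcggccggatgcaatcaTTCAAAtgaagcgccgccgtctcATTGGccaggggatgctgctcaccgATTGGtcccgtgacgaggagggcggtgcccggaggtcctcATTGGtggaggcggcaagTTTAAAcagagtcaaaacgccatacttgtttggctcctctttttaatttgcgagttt
CENPF (chr1:214602945-214603244, plus strand): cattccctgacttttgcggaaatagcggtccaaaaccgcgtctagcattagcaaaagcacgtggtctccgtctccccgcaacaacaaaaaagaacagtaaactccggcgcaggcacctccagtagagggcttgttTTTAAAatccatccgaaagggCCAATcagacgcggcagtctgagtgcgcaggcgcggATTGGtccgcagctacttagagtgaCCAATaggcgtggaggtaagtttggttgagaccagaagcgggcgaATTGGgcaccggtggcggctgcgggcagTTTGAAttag
ASPM and CENPF each hold 4 CCAAT boxes and 1 of either form of the homology region in this window. PLK1 holds 1 CCAAT box, 1 TTTGAA and 2 of the other form. ANLN, which was lower too, holds 2 TTTGAA and 0 CCAAT boxes.

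Of the 8 inner kinetochore genes, 5 passed the test as higher in pseudopods (29.7% of all genes) and 1 as lower (20.8%), with a median log2 change of 0.31. Each role holds few genes, and no role was tested against the share of all genes. CENPH, which joins the CENPA nucleosome to the outer kinetochore, was the largest of them. Its values were 577, 637 and 694 in U87 pseudopods, against 316, 249.7 and 213 in U87 cell bodies. In U251 pseudopods CENPH stood at 726, 744 and 702, against 296, 350.3 and 249.6 in U251 cell bodies. HT1080 pseudopods held 434, 486 and 459.7 units of CENPH, against 172, 128 and 189 in HT1080 cell bodies. In these 3 lines every pseudopod array was above every cell body array, and CENPH was called in each. DU145 pseudopods gave 348, 753 and 609 for CENPH, against 340.1, 339.6 and 188 in DU145 cell bodies. MDA231 pseudopods gave 249, 358 and 561, against 101, 429.6 and 171 in MDA231 cell bodies. MDA435 pseudopods gave 582, 538 and 526, against 250.5, 299 and 432 in MDA435 cell bodies. The arrays overlapped only in MDA231 among the 6 lines, and 15 of the 18 pseudopod arrays were above all 18 cell body arrays. Averaged, CENPH rose (log2 change 1.08 ± 0.13, adjusted p = 8.96e-08), and its means were 555 ± 146 in pseudopods and 262 ± 95.9 in cell bodies (SD, n = 18 each). CENPH is read by a single probe set of a kind that can also match other transcripts; CENPA, CENPL and PTTG1 are read by such probe sets as well.

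CENPN, which binds the CENPA nucleosome, rose (log2 change 0.69 ± 0.11, adjusted p = 7.61e-06). Its values were 1648, 1043 and 729.7 in U87 pseudopods, against 363, 856 and 413 in U87 cell bodies. HT1080 pseudopods held 599.6, 504 and 590.0 units of CENPN, against 281, 229 and 289 in HT1080 cell bodies. Both lines were called, although in U87 1 cell body array (856) lay above 1 pseudopod array (730), and the change in U87 was 1.07 ± 0.28 (adjusted p = 0.00447). In U251 pseudopods CENPN stood at 997, 877 and 871, against 543, 613 and 661 in U251 cell bodies. DU145 pseudopods gave 584, 936 and 708 for CENPN, against 540.4, 568 and 381 in DU145 cell bodies. CENPN in MDA231 pseudopods was 588, 744 and 785, against 338, 747 and 561 in MDA231 cell bodies. CENPN in these 3 lines was higher in mean without passing the test, as in MDA435, where it was 597, 815 and 672 in pseudopods, against 494, 588 and 435 in cell bodies. Its 2 other probe sets above the floor had log2 changes of 0.43 and 0.50.

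The other subunits that rose were CENPM (log2 change 0.54 ± 0.13, adjusted p = 0.000711), CENPA (log2 change 0.33 ± 0.08, adjusted p = 0.0014) and CENPQ (log2 change 0.29 ± 0.07, adjusted p = 0.000619). CENPM, a small subunit of the assembly that contains CENPH and CENPI, ran from 78.5 to 711 (median 190.3) on the 18 pseudopod arrays, against 37.0 to 380.2 (median 131) on the 18 cell body arrays. CENPM in U87 was at 279.6, 218 and 81.8 in pseudopods, against 118, 146 and 99.0 in cell bodies. U251 gave 315, 325 and 319.7 in pseudopods, against 214, 182 and 200.1 in cell bodies. HT1080 gave 111, 78.5 and 87.4 in pseudopods, against 54.9, 37.0 and 54.0 in cell bodies. For CENPM every pseudopod array was above every cell body array in U251 and HT1080, and the arrays of the fractions overlapped in U87. CENPM in DU145 was at 138, 203 and 175 in pseudopods, against 131, 131 and 80.1 in cell bodies. MDA231 gave 107, 93.5 and 178 in pseudopods, against 68.3, 164 and 80.2 in cell bodies. MDA435 gave 374, 368 and 711 in pseudopods, against 380.2, 271 and 299.8 in cell bodies. For CENPM every pseudopod array was above every cell body array in DU145, and the arrays of the fractions overlapped in MDA231 and MDA435. MDA435 PS 3, one of the 6 arrays that stand apart, was the highest, and CENPM was called in no single line. CENPA, the centromeric histone, ran from 117 to 257 (median 166) on the 18 pseudopod arrays, against 72.2 to 288 (median 131) on the 18 cell body arrays. CENPA in U87 was at 151, 127 and 147 in pseudopods, against 117, 136 and 98.6 in cell bodies. U251 gave 191, 255 and 205 in pseudopods, against 126, 141 and 136 in cell bodies. HT1080 gave 117, 118 and 117 in pseudopods, against 78.8, 76.0 and 112 in cell bodies. For CENPA every pseudopod array was above every cell body array in U251 and HT1080, and the arrays of the fractions overlapped in U87. CENPA in DU145 was at 151, 200.1 and 177 in pseudopods, against 141, 150.2 and 95.2 in cell bodies. MDA231 gave 122, 161 and 172 in pseudopods, against 72.2, 166 and 107 in cell bodies. MDA435 gave 194, 229.5 and 257 in pseudopods, against 288, 253 and 195 in cell bodies. For CENPA every pseudopod array was above every cell body array in DU145, and the arrays of the fractions overlapped in MDA231 and MDA435. Only U251 was called, with a change of 0.62 ± 0.20 (adjusted p = 0.0337), while the change in MDA435 was -0.10. CENPQ ran from 155 to 636 (median 320.4) on the 18 pseudopod arrays, against 119 to 543 (median 247) on the 18 cell body arrays, and U87 was called (0.46 ± 0.17, adjusted p = 0.0442). CENPI, a partner of CENPH in the same assembly, was the inner kinetochore gene that fell (log2 change -0.27 ± 0.08, adjusted p = 0.00406). It ran from 68.0 to 227 (median 151) on the 18 pseudopod arrays, against 90.9 to 294 (median 179) on the 18 cell body arrays, and its mean was lower in pseudopods in 6 of 6 lines, with changes between -0.49 (U87) and -0.09 (MDA231), none called by itself. CENPI in U87 was at 166, 116 and 188 in pseudopods, against 252, 186 and 231 in cell bodies. U251 gave 165, 227 and 225 in pseudopods, against 259, 213 and 294 in cell bodies. HT1080 gave 70.0, 73.4 and 68.0 in pseudopods, against 90.9, 95.8 and 103 in cell bodies. For CENPI every pseudopod array was below every cell body array in HT1080, and the arrays of the fractions overlapped in U87 and U251. CENPI in DU145 was at 98.3, 145 and 158 in pseudopods, against 183, 167 and 131 in cell bodies. MDA231 gave 72.4, 94.4 and 135 in pseudopods, against 94.7, 122 and 99.1 in cell bodies. MDA435 gave 161, 190.5 and 191 in pseudopods, against 204, 234 and 175 in cell bodies. For CENPI the arrays of the fractions overlapped in DU145, MDA231 and MDA435. CENPK (log2 change 0.17 ± 0.09, adjusted p = 0.112) and CENPL (log2 change 0.05 ± 0.06, adjusted p = 0.553) did not pass the test. CENPH and CENPI, which belong to 1 complex, differed in sign on the averaged contrast.

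Of the 7 outer kinetochore genes, 2 were higher (29.7% of all genes), 2 lower (20.8%) and 3 not called. CENPF, a large protein of the outer kinetochore and nuclear envelope, fell (log2 change -0.61 ± 0.11, adjusted p = 2.03e-05), with means of 404 ± 178 in pseudopods and 635 ± 319 in cell bodies (SD, n = 18 each). Its values were 373, 372 and 546 in MDA435 pseudopods, against 1074, 695 and 729 in MDA435 cell bodies. HT1080 pseudopods held 206, 214 and 204 units of CENPF, against 341, 332 and 369 in HT1080 cell bodies. These 2 lines were called, with changes of -0.92 ± 0.26 (adjusted p = 0.0178) in MDA435 and -0.70 ± 0.26 (adjusted p = 0.0497) in HT1080, and their arrays did not overlap. In U251 pseudopods CENPF stood at 714, 744 and 623, against 1185, 998 and 1323 in U251 cell bodies. MDA231 pseudopods gave 423, 471 and 469.6 for CENPF, against 558, 486 and 717 in MDA231 cell bodies. The arrays were apart in these lines too, without a call (adjusted p = 0.0569 and 0.479). CENPF was 475, 185 and 453 in U87 pseudopods, against 639, 583 and 417 in U87 cell bodies. DU145 pseudopods gave 164, 338 and 294 for CENPF, against 378, 358 and 253 in DU145 cell bodies. In U87 and DU145 the arrays overlapped. The other probe sets of CENPF, the last of them dim, changed by -0.69 and -0.25 on the log2 scale.

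CENPE, the kinesin that carries chromosomes along microtubules, was the weakest of the called falls (log2 change -0.20 ± 0.08, adjusted p = 0.0413), with means of 194 ± 68.0 in pseudopods and 229 ± 86.6 in cell bodies (SD, n = 18 each). Its values were 209.5, 164 and 231 in MDA435 pseudopods, against 379, 289 and 309 in MDA435 cell bodies. There the arrays did not overlap and the fall was called (-0.65 ± 0.20, adjusted p = 0.0296). MDA231 pseudopods gave 255, 304 and 207 for CENPE, against 322, 322 and 333 in MDA231 cell bodies. HT1080 pseudopods held 132, 113 and 124 units of CENPE, against 163, 122 and 177 in HT1080 cell bodies. CENPE was 201, 108 and 202 in U87 pseudopods, against 244, 211 and 149 in U87 cell bodies. These 3 lines were lower in mean and not called. In U251 pseudopods CENPE stood at 217, 298 and 315, against 279, 218 and 248 in U251 cell bodies. DU145 pseudopods gave 109.5, 155 and 142 for CENPE, against 120.5, 110.5 and 116 in DU145 cell bodies. In U251 and DU145 the mean was higher in pseudopods, by 0.14 and 0.19 on the log2 scale, with overlapping arrays. CENPE lost its call without the 6 arrays that stand apart (-0.16, adjusted p = 0.158), without either MDA line, and in 17 of 36 fits that left out 1 array.

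SPC25 (log2 change 0.47 ± 0.11, adjusted p = 0.000706) and ZWINT (log2 change 0.24 ± 0.06, adjusted p = 0.00272) rose. SPC25, the subunit that anchors the NDC80 complex to the kinetochore, ran from 159 to 1159 (median 448) on the 18 pseudopod arrays, against 131 to 898 (median 447) on the 18 cell body arrays. SPC25 in U87 was at 865, 887 and 928 in pseudopods, against 567, 517 and 462 in cell bodies. U251 gave 1014, 1159 and 974 in pseudopods, against 773, 714 and 898 in cell bodies. HT1080 gave 318, 267 and 323 in pseudopods, against 172, 178 and 246 in cell bodies. For SPC25 every pseudopod array was above every cell body array in U87, U251 and HT1080. SPC25 in DU145 was at 159, 280.5 and 326 in pseudopods, against 232, 197 and 131 in cell bodies. MDA231 gave 229, 307 and 435 in pseudopods, against 152, 432 and 248 in cell bodies. MDA435 gave 460.4, 803 and 727 in pseudopods, against 482, 507 and 479 in cell bodies. For SPC25 the arrays of the fractions overlapped in DU145, MDA231 and MDA435. It was called in U87 (0.78 ± 0.27, adjusted p = 0.0351). ZWINT, which helps to bring checkpoint proteins to the kinetochore, ran from 2077 to 4548 (median 2868) on the 18 pseudopod arrays, against 1581 to 3789 (median 2604) on the 18 cell body arrays, and HT1080 was called (0.44 ± 0.16, adjusted p = 0.0381). The other 3 subunits of the NDC80 complex did not pass the test: NDC80 (log2 change -0.07 ± 0.07, adjusted p = 0.399), NUF2 (log2 change -0.02 ± 0.09, adjusted p = 0.884) and SPC24 (log2 change 0.17 ± 0.07, adjusted p = 0.0544). SPC24 in U87 was at 280.3, 217 and 325 in pseudopods, against 262, 178 and 197 in cell bodies. U251 gave 302, 239.6 and 217 in pseudopods, against 293, 228 and 239 in cell bodies. HT1080 gave 216, 243 and 218 in pseudopods, against 144, 144 and 169 in cell bodies. For SPC24 every pseudopod array was above every cell body array in HT1080, and the arrays of the fractions overlapped in U87 and U251. SPC24 in DU145 was at 156, 188 and 187 in pseudopods, against 172, 207 and 122 in cell bodies. MDA231 gave 164, 159.8 and 192 in pseudopods, against 172, 181 and 170.5 in cell bodies. MDA435 gave 215, 249 and 341 in pseudopods, against 278, 262 and 214 in cell bodies. For SPC24 the arrays of the fractions overlapped in DU145, MDA231 and MDA435. SPC24 was called in HT1080 (0.52 ± 0.18, adjusted p = 0.0298). The 4 subunits of 1 complex thus had averaged changes from -0.07 to 0.47, of which 1 was called.

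Of 6 spindle checkpoint genes, 2 were higher (29.7% of all genes) and 0 lower (20.8%). BUB3, a scaffold of the checkpoint (log2 change 0.20 ± 0.05, adjusted p = 0.00107), and CDC20, the activator of the anaphase-promoting complex that the checkpoint holds back (log2 change 0.31 ± 0.10, adjusted p = 0.0111), rose. BUB3 ran from 2622 to 3533 (median 2872) on the 18 pseudopod arrays, against 2051 to 2810.3 (median 2565) on the 18 cell body arrays, and 10 pseudopod arrays were above all cell body arrays although its fold was 1.15. The checkpoint kinases BUB1 (0.04 ± 0.07) and TTK (-0.05 ± 0.10), the pseudokinase BUB1B (0.03 ± 0.08) and MAD2L1, which binds CDC20 (0.15 ± 0.07), had adjusted p of 0.653, 0.719, 0.805 and 0.0672 for their log2 changes.

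In the chromosomal passenger complex, 2 of 4 genes were higher (29.7% of all genes) and 1 lower (20.8%). BIRC5, also known as survivin (log2 change 0.35 ± 0.11, adjusted p = 0.0112), and CDCA8, also known as borealin (log2 change 0.29 ± 0.09, adjusted p = 0.00586), rose. BIRC5 ran from 368 to 1157 (median 907) on the 18 pseudopod arrays, against 238 to 1141 (median 535) on the 18 cell body arrays, and its mean was higher in 5 of 6 lines, U251 being the exception. BIRC5 in U87 was at 1111, 903 and 596 in pseudopods, against 453, 671 and 517 in cell bodies. U251 gave 995, 984 and 962 in pseudopods, against 908, 1009 and 1141 in cell bodies. HT1080 gave 461, 368 and 393 in pseudopods, against 238, 252 and 290.4 in cell bodies. For BIRC5 every pseudopod array was above every cell body array in HT1080, and the arrays of the fractions overlapped in U87 and U251. BIRC5 in DU145 was at 416, 645 and 529 in pseudopods, against 483, 549 and 325 in cell bodies. MDA231 gave 388, 920.4 and 912 in pseudopods, against 282, 702 and 521 in cell bodies. MDA435 gave 1104, 1157 and 924 in pseudopods, against 1014, 1017 and 850.5 in cell bodies. For BIRC5 the arrays of the fractions overlapped in DU145, MDA231 and MDA435. The kinase AURKB had a log2 change of similar size that did not pass the test (0.29 ± 0.13, adjusted p = 0.0673). INCENP, the scaffold that binds and activates AURKB, fell (log2 change -0.32 ± 0.12, adjusted p = 0.0231). It ran from 7.9 to 87.3 (median 33.3) on the 18 pseudopod arrays, against 24.9 to 94.0 (median 47.8) on the 18 cell body arrays, so it is a dim gene near the floor. INCENP in U87 was at 57.4, 7.9 and 44.6 in pseudopods, against 48.2, 68.0 and 71.4 in cell bodies. U251 gave 38.3, 56.6 and 41.4 in pseudopods, against 55.1, 55.0 and 53.3 in cell bodies. HT1080 gave 32.4, 24.2 and 14.4 in pseudopods, against 42, 26.7 and 27.3 in cell bodies. For INCENP the arrays of the fractions overlapped in U87, U251 and HT1080. INCENP in DU145 was at 13.4, 33.0 and 21.2 in pseudopods, against 31.3, 33.5 and 24.9 in cell bodies. MDA231 gave 33.6, 31.7 and 14.2 in pseudopods, against 27.4, 47.3 and 33.0 in cell bodies. MDA435 gave 62.6, 48.8 and 87.3 in pseudopods, against 94.0, 73.9 and 54.3 in cell bodies. For INCENP the arrays of the fractions overlapped in DU145, MDA231 and MDA435. The INCENP mean was lower in 6 of 6 lines, and without the 6 arrays that stand apart it was not called (-0.25, adjusted p = 0.0967).

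Of 6 mitotic kinases and cyclins, 4 were higher (29.7% of all genes) and 0 lower (20.8%). PLK1, the polo-like kinase that acts from mitotic entry to cytokinesis, rose (log2 change 0.46 ± 0.09, adjusted p = 6.16e-05). Its values were 261, 200.0 and 229.7 in U87 pseudopods, against 152, 163 and 97.1 in U87 cell bodies. In U251 pseudopods PLK1 stood at 297, 405 and 385, against 230.0, 189 and 208 in U251 cell bodies. HT1080 pseudopods held 215, 174 and 198 units of PLK1, against 125, 111 and 126 in HT1080 cell bodies. In these 3 lines the arrays did not overlap and PLK1 was called. DU145 pseudopods gave 102, 141 and 147 for PLK1, against 102, 117 and 80.1 in DU145 cell bodies. PLK1 in MDA231 pseudopods was 166, 239 and 266, against 132, 229.6 and 167 in MDA231 cell bodies. MDA435 pseudopods held 335, 379 and 486, against 537, 344 and 298 in MDA435 cell bodies. In these 3 lines the arrays overlapped, and the change in MDA435 was 0.05. AURKA, the spindle pole kinase (log2 change 0.34 ± 0.08, adjusted p = 0.000552), CDK1, the kinase that drives entry into mitosis (log2 change 0.31 ± 0.07, adjusted p = 0.000317), and CCNA2, the cyclin A gene (log2 change 0.24 ± 0.06, adjusted p = 0.00126), rose as well, and each was called in HT1080. CDK1 ran from 1216 to 3298 (median 2427) on the 18 pseudopod arrays, against 931 to 2773 (median 2069) on the 18 cell body arrays. The 2 B-type cyclins that partner CDK1 did not pass the test: CCNB1 had log2 change -0.09 ± 0.10, adjusted p = 0.499, and CCNB2 had log2 change 0.18 ± 0.08, adjusted p = 0.058.

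The spindle and cytokinesis genes held the largest falls. ASPM fell (log2 change -0.92 ± 0.12, adjusted p = 2.19e-07), with means of 369 ± 137 in pseudopods and 697 ± 210.1 in cell bodies (SD, n = 18 each). Its values were 236, 229.5 and 215 in HT1080 pseudopods, against 477, 472 and 558 in HT1080 cell bodies. In U251 pseudopods ASPM stood at 439, 599 and 563, against 1057, 873 and 1014 in U251 cell bodies. MDA435 pseudopods held 287, 256 and 366, against 953, 537 and 528 in MDA435 cell bodies. In these lines every pseudopod array was below every cell body array, and each was called. ASPM was 411, 194 and 639 in U87 pseudopods, against 1042, 801 and 566 in U87 cell bodies. DU145 pseudopods gave 202, 431 and 436 for ASPM, against 649.8, 538 and 467 in DU145 cell bodies. MDA231 pseudopods gave 378, 411 and 349, against 713, 555 and 752 in MDA231 cell bodies. U87 was called although 1 of its pseudopod arrays (639) was above 1 cell body array (566); DU145 and MDA231 had arrays apart and no call (adjusted p = 0.219 and 0.107). Of the 18 pseudopod arrays, 15 were below all 18 cell body arrays. The 2 dimmer ASPM probe sets changed by -0.38 and -0.79.

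ANLN, anillin, which links actin, myosin and septins at the cleavage furrow, fell (log2 change -0.82 ± 0.08, adjusted p = 1.84e-09), with means of 1416 ± 507 in pseudopods and 2437 ± 703 in cell bodies (SD, n = 18 each). Its values were 809, 668 and 750.0 in HT1080 pseudopods, against 1577, 1637 and 1853 in HT1080 cell bodies. In U251 pseudopods ANLN stood at 2333, 2034 and 2143, against 3881, 3114 and 4193 in U251 cell bodies. DU145 pseudopods gave 787, 1169.8 and 1537 for ANLN, against 2378, 2112 and 1864 in DU145 cell bodies. These 3 lines were called, DU145 for no other member. ANLN was 1288, 1129 and 1903 in U87 pseudopods, against 2702, 2119 and 2049.5 in U87 cell bodies. MDA435 pseudopods held 1054, 1244 and 1739 units of ANLN, against 2632, 2202 and 2404 in MDA435 cell bodies. ANLN in MDA231 pseudopods was 1538, 1789 and 1575, against 2162, 2248 and 2742 in MDA231 cell bodies. The arrays of the fractions did not overlap in any of the 6 lines, and 5 were called, with MDA231 at -0.54 ± 0.20 (adjusted p = 0.112). A further ANLN probe set changed by -1.15. RACGAP1, the GTPase-activating protein of the central spindle, rose by a small amount (log2 change 0.15 ± 0.05, adjusted p = 0.0172). TPX2 (-0.05 ± 0.09), NUSAP1 (0.12 ± 0.07), PRC1 (0.11 ± 0.08) and ECT2 (-0.02 ± 0.06), which act on spindle microtubules or at the cleavage furrow, did not pass the test, with adjusted p of 0.679, 0.174, 0.255 and 0.85 for their log2 changes.

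**Figure D2:**
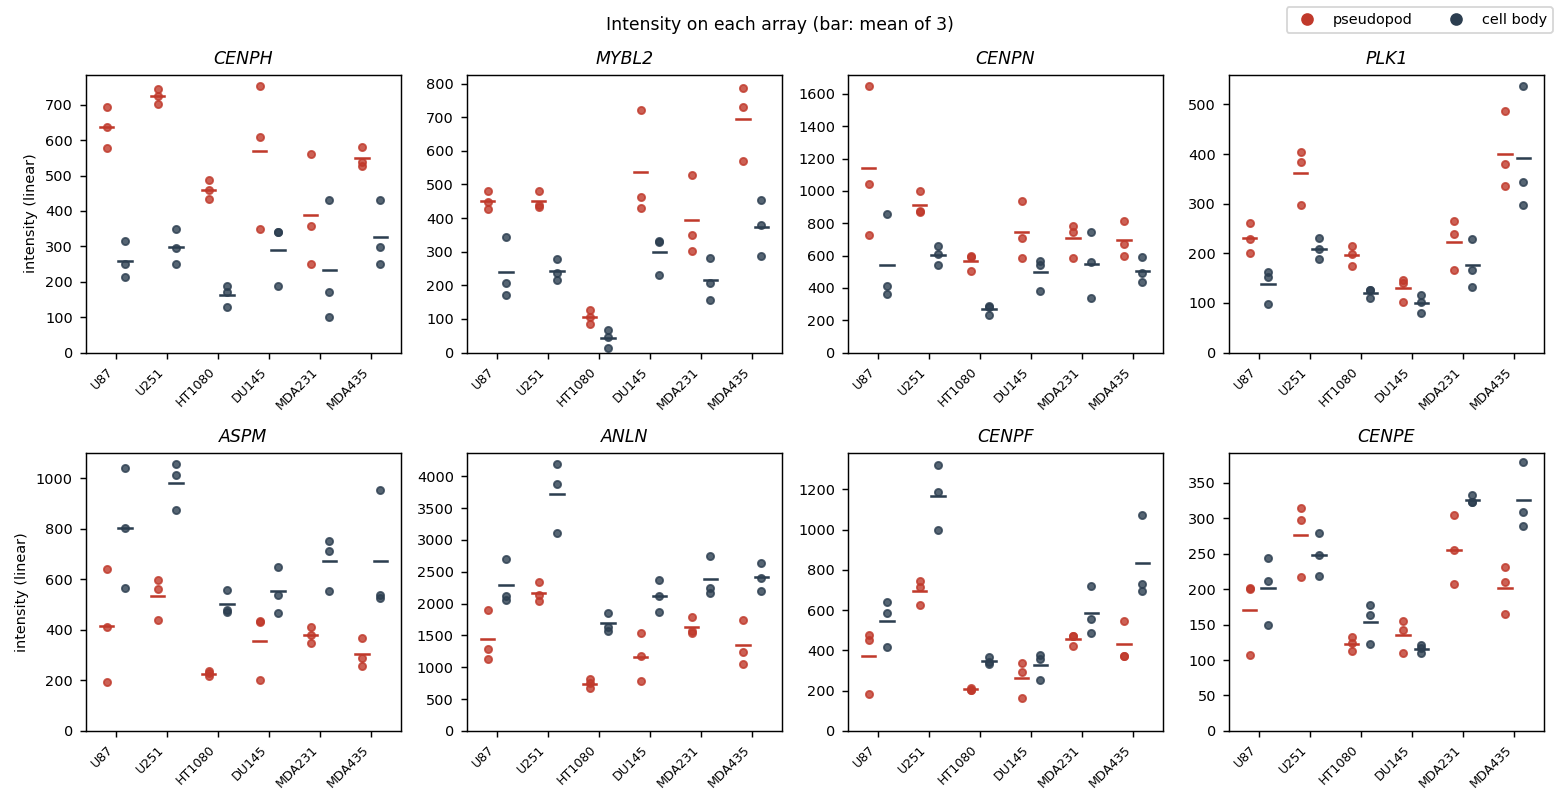
Intensity (linear units) of 8 genes on each of the 36 arrays, pseudopod (red) left of cell body (dark) in each line; points are arrays and bars the means of 3. CENPH, MYBL2, CENPN and PLK1 in the upper row have pseudopod means above cell body means in all 6 lines, and ASPM, ANLN and CENPF below in all 6, while CENPE is higher in U251 and DU145.

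Of the 4 remaining genes, 2 were higher (29.7% of all genes). MYBL2 rose (log2 change 0.91 ± 0.12, adjusted p = 2.29e-07), with means of 439 ± 199.6 in pseudopods and 235 ± 116 in cell bodies (SD, n = 18 each). Its values were 481, 426 and 449 in U87 pseudopods, against 208, 343 and 170.4 in U87 cell bodies. In U251 pseudopods MYBL2 stood at 482, 440.3 and 432, against 279, 237 and 215 in U251 cell bodies. HT1080 pseudopods held 126, 106 and 84.1 units of MYBL2, against 68.5, 13 and 47.3 in HT1080 cell bodies. These lines and MDA435 were called, and MYBL2 was the member called as higher in the most lines. MDA435 pseudopods held 569, 729 and 788 units of MYBL2, against 287, 454 and 379 in MDA435 cell bodies. DU145 pseudopods gave 428, 720.3 and 464 for MYBL2, against 329.5, 333 and 232 in DU145 cell bodies. MYBL2 in MDA231 pseudopods was 301, 529 and 349.9, against 156, 207 and 280.4 in MDA231 cell bodies. In 6 of 6 lines every pseudopod array was above every cell body array, with log2 changes between 0.80 (DU145) and 1.16 (HT1080). PTTG1, the inhibitor of separase (log2 change 0.43 ± 0.08, adjusted p = 7.62e-05), rose and was called in U87 and HT1080. It ran from 1334 to 3911 (median 2096) on the 18 pseudopod arrays, against 766 to 2403 (median 1681) on the 18 cell body arrays, and near-identical copies of the gene could share its probe set. PTTG1 in U87 was at 3911, 3547 and 2417 in pseudopods, against 2111, 2231 and 1817 in cell bodies. U251 gave 2868, 2555 and 2572 in pseudopods, against 1928, 2044 and 2403 in cell bodies. HT1080 gave 2066, 1334 and 1751 in pseudopods, against 1143, 766 and 1026 in cell bodies. For PTTG1 every pseudopod array was above every cell body array in U87, U251 and HT1080. PTTG1 in DU145 was at 1335, 1930.5 and 1678 in pseudopods, against 1216, 1531 and 1049.5 in cell bodies. MDA231 gave 2078, 2775 and 1789 in pseudopods, against 1544, 1716 and 2103 in cell bodies. MDA435 gave 1650.5, 2170.1 and 2115 in pseudopods, against 2124, 1645 and 1624 in cell bodies. For PTTG1 the arrays of the fractions overlapped in DU145, MDA231 and MDA435. MKI67, the proliferation marker that coats mitotic chromosomes, did not pass the test (log2 change -0.22 ± 0.10, adjusted p = 0.0619). It ran from 88.8 to 688 (median 290.4) on the 18 pseudopod arrays, against 118 to 668 (median 321) on the 18 cell body arrays, and its mean was lower in 6 of 6 lines. MKI67 in U87 was at 439.9, 195 and 345 in pseudopods, against 445, 548 and 233 in cell bodies. U251 gave 688, 574 and 549.5 in pseudopods, against 668, 610.5 and 631 in cell bodies. HT1080 gave 112, 103 and 88.8 in pseudopods, against 126, 118 and 163 in cell bodies. For MKI67 every pseudopod array was below every cell body array in HT1080, and the arrays of the fractions overlapped in U87 and U251. MKI67 in DU145 was at 267, 312 and 283 in pseudopods, against 306, 278 and 306 in cell bodies. MDA231 gave 239, 287 and 398 in pseudopods, against 307, 427 and 305 in cell bodies. MDA435 gave 383, 285 and 294 in pseudopods, against 471, 335 and 459 in cell bodies. For MKI67 the arrays of the fractions overlapped in DU145, MDA231 and MDA435. With the lines as units MKI67 was called as lower (adjusted p = 0.0221), and 1 of its 4 probe sets differed from the others in sign, at 0.02. TOP2A, topoisomerase II, which untangles sister chromatids, had log2 change -0.03 ± 0.07, adjusted p = 0.777.

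The genes of the large proteins ASPM, CENPE and CENPF were set beside those of small ones. CENPE was not called with the lines as units (adjusted p = 0.156), nor in 11 of the 21 alternative settings. The 3 large ones were lower on the averaged contrast, with a median log2 change of -0.61. Of 13 genes of small proteins (CENPA, CENPH, CENPK, CENPM, CENPQ, MAD2L1, BIRC5, CDCA8, SPC24, SPC25, ZWINT, PTTG1 and CDK1), 10 were higher, 0 lower and 3 not called, with a median of 0.31. Among all genes tested, 29.7% were higher and 20.8% lower, and small proteins outside the members were not looked at as a class. The size groups rest on textbook knowledge of the proteins and were drawn up with the values known, so they are described without a test. No protein lengths were read, so the edge of the small group is a choice on which its counts depend. The median of the 3 large genes minus that of the 13 small ones was -0.92 on the log2 scale, and in single lines -1.16 (HT1080), -1.10 (U251), -1.08 (MDA435), -1.03 (U87), -0.63 (MDA231) and -0.59 (DU145). Over the 6 lines, 16 of 18 changes of the large genes were negative, the exceptions being CENPE in U251 and DU145, and 71 of 78 changes of the small genes were positive. In the main setting the direction was not shared by all large proteins. Of 5 further ones, ANLN was lower, while MKI67, TOP2A, BUB1 and BUB1B were not called. BUB1 and BUB1B had values above 0, and the median of the 5 was -0.03. For some of them this depended on the probe set read. When a gene's probe sets were averaged, MKI67 and TOP2A were called as lower and BUB1 was at -0.080. MKI67 was also lower in mean in 6 of 6 lines, and limma called it as lower with the lines as units (adjusted p = 0.0221). CENPI and INCENP, outside these groups, were lower, and of the 21 members outside the groups 8 were higher and 2 lower, with a median of 0.12. Without probe sets marked as shared, the difference between the 3 large and the small genes was -0.56. The median of the large genes was then -0.25, with ASPM and CENPF read by dimmer probe sets, and that of the 8 small genes that could be read was 0.30.

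**Figure D3:**
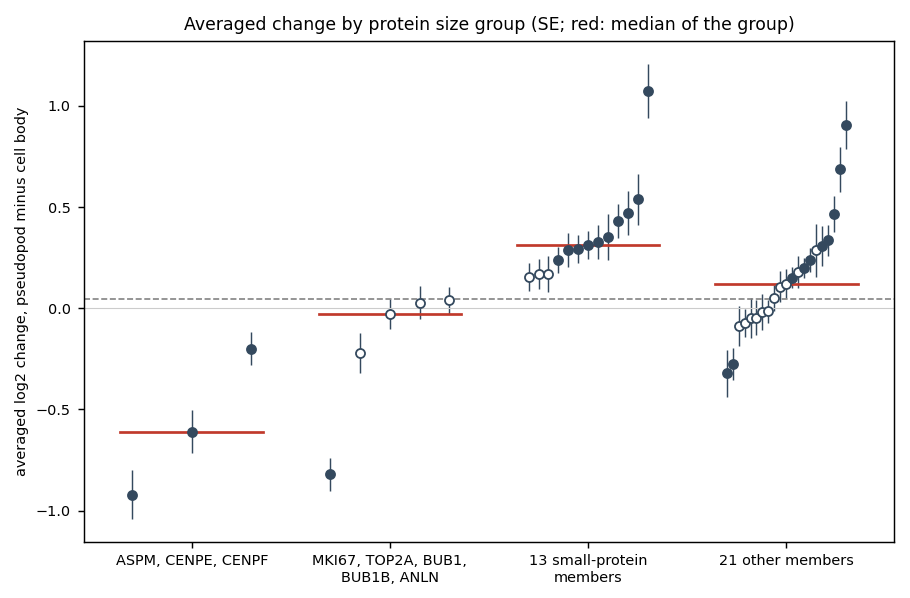
Averaged log2 change of the 42 genes (SE), pseudopod minus cell body, by size of the protein; filled points were called, red lines are group medians and the dashed line is the median of all genes tested (0.05). The 3 large genes lie below 0, at a median of -0.61, the 13 small ones above it, at 0.31, and the 5 further large ones hold 1 clear fall, ANLN.

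RNAs kept in the nucleus were lower in pseudopods in the same arrays. The ribosomal precursor RNA45SN5 ran from 4.7 to 408 (median 32.7) on pseudopod arrays, against 171 to 1365 (median 569.8) on cell body arrays, a log2 change of -3.25 ± 0.23 (adjusted p = 3.76e-12). MALAT1, a long RNA of nuclear speckles, ran from 713 to 4182 (median 2790.5), against 2211 to 6067 (median 4445), a log2 change of -0.69 ± 0.14 (adjusted p = 0.000133). Both were lower in 6 of 6 lines, and their part in the falls of ASPM, ANLN and CENPF was not tested. CDH1 (-0.17 ± 0.58, adjusted p = 0.838) and EPCAM (-0.15 ± 0.38, adjusted p = 0.764) were not called between fractions. Without the 6 arrays that differ in them, the log2 changes were -0.87 for ASPM, -0.82 for ANLN, -0.61 for CENPF, 1.10 for CENPH and 0.87 for MYBL2, and each was called.

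The lines differed in how many members were called. In HT1080, 11 members were higher (12.9% of all genes) and 3 lower (12.1%), which is 26.2% and 7.14% of the members. U87 had 7 higher (11.8% of all genes) and 2 lower (11.8%), U251 4 higher (5.4%) and 2 lower (9.34%), and MDA435 1 higher (2.96%) and 4 lower (8.8%). In DU145 ANLN alone was lower (2.2% of all genes) and 0 were higher (0.824%), and in MDA231 limma called 0 in either direction (1.18% and 4.88%). In MDA231, ANLN, ASPM, CENPF and CENPE had every pseudopod array below every cell body array (11.9% of all genes), and MYBL2, CDK1, ZWINT and BUB3 had every one above (9.18%). Members with every pseudopod array above numbered 21 in HT1080 (29.6% of all genes), 15 in U251 (22.1%), 9 in U87 (17%), 7 in DU145 (16.7%) and 4 in MDA435 (12.3%). Members with every one below numbered 5 in HT1080 (18.4%), 5 in U251 (16.9%), 1 in U87 (14.4%), 2 in DU145 (15%) and 4 in MDA435 (12.4%). Over the lines 14 members were higher in at least 1, 4 were lower in at least 1 (ANLN in 5, ASPM in 4, CENPF in 2, CENPE in 1), 0 were called in both directions and 24 in none. These counts over lines were not made for all genes, so they have no background and describe the members alone. The members that were called highest by line were CENPH, MYBL2 and CENPN in HT1080 (1.43, 1.16 and 1.04), CENPH in U87 and U251 (1.26 and 1.25), and MYBL2 in MDA435 (0.88). The largest called falls were ANLN in HT1080 (-1.17) and in DU145 (-0.90), and ASPM in U87, U251 and MDA435 (-1.03, -0.87 and -1.07). HT1080 also called AURKA (0.56), CDK1 (0.46), CCNA2 (0.40) and BUB3 (0.32).

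These differences between lines did not pass their own test. The moderated F test of the change between lines called 0 of 42 members, with 0 under an unadjusted p of 0.05, against 1.04% called and 9.91% under that p among all genes. The largest F was that of CENPE (2.50, adjusted p = 0.515), followed by PLK1, SPC24 and CENPA (adjusted p = 0.821, 0.845 and 0.868). Whether called or not, 18 members had a change above 0 in 6 of 6 lines (27.9% of all genes). In 6 members it was below 0 in 6 of 6 lines (17.2%). These are not the sets called in the average, although the counts are equal. They include CCNB2, NUSAP1, PRC1 and MKI67, which were not called. The called CENPA, BIRC5 and CDCA8 were higher in 5 of 6 lines, and the called CENPE was lower in 4. By the F test, a member called in 1 line and not in another is not shown to differ between them. Array weights brought 1 member past this F test. The share of all genes called was not taken with array weights or without single arrays. The numbers called also moved with the arrays used: the HT1080 count of higher members lay between 3 and 12 when 1 array was left out, and was 3 without HT1080 CB 2 and 4 without HT1080 PS 1, PS 3 or CB 1. In U87 it was 2 without PS 1 or CB 3, 3 without CB 1 and 4 without PS 2, and the number lower there was 0 without PS 2 or CB 1 and 5 without PS 3. In U251 the number higher was 1 without PS 2, PS 3, CB 2 or CB 3 and 2 without CB 1, and the number lower was 0 without CB 3 and 1 without any other array of U251 and without several of other lines. In MDA435 the number lower was 1 without PS 2 or CB 1, and MYBL2 lost its call there without PS 2, PS 3, CB 1 or CB 3 and without several arrays of other lines. ANLN lost its call in DU145 without PS 1, PS 2 or CB 1. In MDA231, 2 members were higher without CB 2.

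The level of the members in cell bodies differed between lines for 39 of 42 genes (moderated F, adjusted p under 0.05; 80.6% of all genes), the exceptions being CENPH, ASPM and BUB3. U251 had the highest cell body mean for 28 members, MDA435 for 9 and MDA231 for 5. HT1080 had the lowest for 31 and DU145 for 7. The lines were not ranked in this way over all genes, so these counts have no background. MKI67 averaged 636.6 ± 29.1 in U251, 422 ± 75.1 in MDA435, 409 ± 160.5 in U87, 346 ± 70.1 in MDA231, 297 ± 16.1 in DU145 and 136 ± 23.7 in HT1080 cell bodies (SD, n = 3 each). Only U251 and HT1080 were apart from their neighbours in that order, and the arrays of the 4 lines between them overlapped from each to the next. CDK1 averaged 2422 ± 150.1 in U251 and 1037 ± 179 in HT1080 cell bodies, and its only gap between neighbours lay between U87 (1941 ± 223) and DU145 (1371 ± 229.9). PLK1 was highest in MDA435 (393 ± 127), apart from U251 (209 ± 20.5), and MYBL2 was lowest in HT1080 (42.9 ± 28.0), apart from MDA231 (215 ± 62.3). The mean log2 level of the 42 genes was 9.98 ± 0.02 in pseudopods and 9.84 ± 0.08 in cell bodies of U251, and 8.93 ± 0.09 and 8.72 ± 0.15 in HT1080 (SD, n = 3). MDA435 had 9.69 ± 0.13 and 9.69 ± 0.10. The lowest DU145 arrays in this mean were PS 1 and CB 3 (8.89 and 8.84), the same ones that were low in CDH1.

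**Figure D4:**
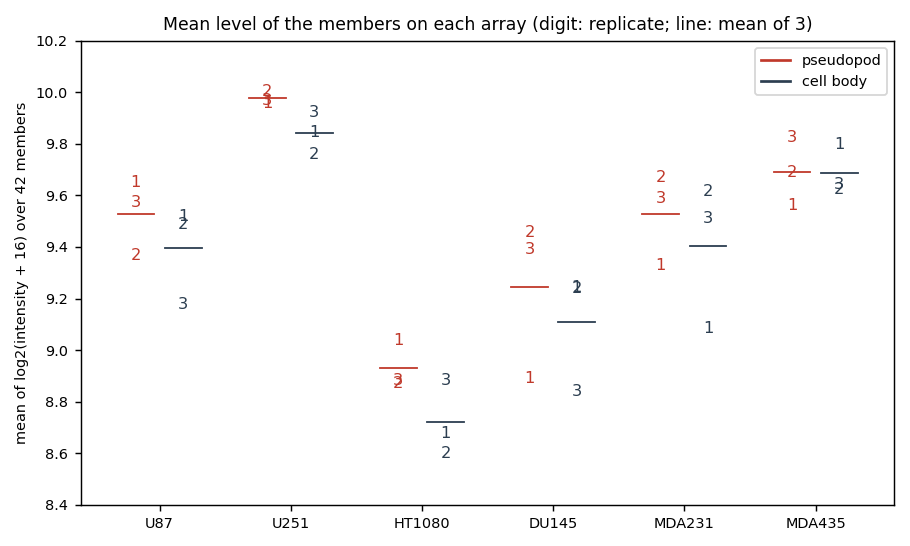
Mean of log2(intensity + 16) over the 42 genes on each of the 36 arrays, pseudopod (red) left of cell body (dark); digits are replicate numbers and lines the means of 3. U251 lies highest, at 9.98 and 9.84, HT1080 lowest, at 8.93 and 8.72, and DU145 PS 1 and CB 3 lie apart from the other arrays of that line.

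The rest of the pathway was read from 6 lists with 103 further genes, 97 of them tested. Of these 43 were higher, 7 lower and 47 not called, with a median log2 change of 0.15. Of all genes tested, 29.7% were higher and 20.8% lower. The lists were chosen with earlier results of these data known, and protein size was not looked at in them. Among centromere and kinetochore assembly genes 12 of 17 were higher and 2 lower. CENPX and CENPW are histone-fold proteins of the inner kinetochore. CENPX averaged 1048 ± 399 in pseudopods and 655 ± 295 in cell bodies (SD, n = 18 each), with log2 change 0.72 ± 0.11 (limma, adjusted p = 2.43e-06). CENPW averaged 595 ± 241 in pseudopods and 380.5 ± 152 in cell bodies (SD, n = 18 each), with log2 change 0.61 ± 0.11 (limma, adjusted p = 4.06e-05). KNL1, the outer kinetochore scaffold that recruits checkpoint proteins, averaged 456 ± 134 in pseudopods and 681 ± 181 in cell bodies (log2 change -0.57 ± 0.09, adjusted p = 3.34e-06). CENPC, which links CENPA to the outer kinetochore, was lower as well (log2 change -0.19 ± 0.07, adjusted p = 0.0185). These genes thus changed in both directions within 1 structure, as the members did. Of 18 checkpoint and anaphase-promoting complex genes 14 were higher and 1 lower. The ubiquitin-conjugating enzyme UBE2S (log2 change 0.67 ± 0.08, adjusted p = 6.88e-08) and the complex's subunit ANAPC10 (log2 change 0.54 ± 0.07, adjusted p = 1.3e-07) were the largest rises. KNTC1, which brings dynein to kinetochores, was the fall (log2 change -0.49 ± 0.10, adjusted p = 0.000255).

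Among kinases, cyclins and their regulators 4 of 16 were higher and 1 lower. FOXM1, the transcription factor that acts with MYBL2 on G2 and mitotic genes (log2 change 0.54 ± 0.08, adjusted p = 2.33e-06), and CKS1B, a subunit of cyclin-dependent kinases (log2 change 0.44 ± 0.07, adjusted p = 7.02e-06), rose, and GTSE1, a microtubule-associated protein, fell (log2 change -0.36 ± 0.06, adjusted p = 2.13e-05). Of 20 spindle motors and assembly genes 5 were higher and 1 lower. NDE1, a dynein regulator (log2 change 0.44 ± 0.08, adjusted p = 7.56e-05), and TACC3, which cross-links spindle microtubules (log2 change 0.41 ± 0.09, adjusted p = 0.000487), rose, and the kinesin KIF18A fell (log2 change -0.17 ± 0.06, adjusted p = 0.0229). Of 18 cohesin, condensin and separation genes 3 were higher and 2 lower. WAPL, which releases cohesin (log2 change 0.23 ± 0.05, adjusted p = 0.000232), and the condensin subunit NCAPH (log2 change 0.20 ± 0.08, adjusted p = 0.0429) rose, and SMC1A of cohesin (log2 change -0.27 ± 0.07, adjusted p = 0.00203) and SMC2 of condensin (log2 change -0.16 ± 0.07, adjusted p = 0.0498) fell. With the lines as units neither was called (adjusted p = 0.103 for SMC1A, higher in 2 of 6 lines, and 0.0814 for SMC2); of the other genes of these lists called in the average, CEP55 and RHOA were not called there either. Of 8 cytokinesis genes 5 were higher and 0 lower, led by VPS4A, the ATPase of abscission (log2 change 0.59 ± 0.09, adjusted p = 2.44e-06), and ARHGAP11A, a GTPase-activating protein for RhoA (log2 change 0.29 ± 0.08, adjusted p = 0.00345). The share of all genes was 29.7% higher and 20.8% lower.

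The choice of probe set was checked within the members. The 42 genes have 87 probe sets, 21 genes having 1. Of 36 further probe sets above the floor, 32 had the sign of the one used; the 4 that did not belong to AURKB, BUB1, CCNB1 and MKI67, none of them called in the averaged contrast. For called members 22 of 22 had the same sign. AURKA shows a limit of that count: its dimmest probe set was at 0.0043, against 0.34 for the one used and 0.25 for the other bright one.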

How the data were processed

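The files hold linear intensity values of 36 Affymetrix arrays of the HG-U133 Plus 2.0 type, deposited by the authors as 1 table of 54593 probe sets, from 0 to 9883.2. Per the labels' protocols, 100 ng of total RNA was labelled in 2 cycles starting from oligo(dT) primers. RMA and Partek appear in the submitters' processing notes, with neither role nor version, so which program wrote these values is unknown. With the top and bottom 2% trimmed, array means ran from 149.2 to 149.6 and array medians from 18.2 to 30.6. The number of arrays limits the precision.

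Values were taken as log2(intensity + 16), which understates the change of dim genes. Of the probe sets, 41074 carry 1 symbol, 1798 several and 11721 none, by the platform annotation; 41020 were updated through Entrez numbers to RefSeq GRCh38.p14 symbols. The probe set with the highest mean stood for a gene, and 15294 of 19775 genes with a highest group mean of at least 24.4 units were tested with limma 3.58.1 in R 4.3.3 (12 group means, 24 residual degrees of freedom, Benjamini-Hochberg over all genes). The tests were checked on simulated data. Figures were drawn in Python 3.11.15.

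The members and lists were chosen with earlier results of these data known. Named genes were ASPM, CENPE and CENPF, up to 8 largest called rises and falls, the 4 largest F values, per line up to 3 called rises and falls whose arrays did not overlap, up to 2 rises and 2 falls of each further list, and MKI67, RNA45SN5, MALAT1, CDH1 and EPCAM; other members are covered by role. Marked probe sets are those whose identifiers (s or x) say that they can match several transcripts. Classes by protein length were planned, but no protein table was used here, so size groups from textbook knowledge took their place. Alternatives covered the pseudocount, scaling, filter, probe set, array weights, replicate block, lines and arrays. The fractions share only replicate numbers, and the main fit does not pair them. Over 18 pairs the deviations of same-numbered arrays correlated between -0.78 (MDA435) and 0.69 (MDA231), 4 of them over 0.1. Deviations from a mean of 3 arrays sum to 0, and both of these lines hold arrays that stand apart. The correlations therefore do not settle whether the numbers pair the fractions.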

Additional observations from a re-analysis of the deposited data

How the results depend on the processing

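Besides leaving out single arrays, 21 alternative settings were run on the averaged changes, and 14 of the 42 members, among them ASPM, ANLN, CENPF, CENPI, MYBL2, CENPN, CENPM, SPC25 and PLK1, kept sign and side of the threshold in all of them. CENPA, CENPH, ZWINT, CDCA8 and PTTG1 did so in the 20 that could be run on them, since they have only marked probe sets and could not be read without these. CENPE lost its call in 11 settings, INCENP in 5, RACGAP1 in 4, BIRC5 in 2, and CDC20 and AURKA in 1 each, AURKA without marked probe sets (0.0043, adjusted p = 0.968). Other members gained a call that the main setting did not give. As higher, these were CCNB2 in 8 settings, SPC24 in 7, AURKB in 6, MAD2L1 in 5, NUSAP1 in 2, and CENPK and PRC1 in 1 each. As lower, they were MKI67 in 3 and TOP2A in 1. The median change of all genes was 0.05 as deposited, 0.09 after quantile normalization and 0.15 with equal array medians; the members' median was 0.26 with equal medians.

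Sign changes concerned members that were not called, and the cause was not tested. BUB1B was at -0.013 after quantile normalization. With equal array medians NDC80 was at 0.023, NUF2 0.079, TTK 0.049, CCNB1 0.011, TPX2 0.050, ECT2 0.082 and TOP2A 0.069. With the mean of all probe sets BUB1 was at -0.080 and AURKB at -0.17, and CCNB1 was at 0.035 without marked probe sets. TPX2 was at 0.0083 with array weights. Without MDA231 and MDA435 BUB1 was at -0.028, TTK 0.032 and TOP2A 0.0014. ECT2 was at 0.011 and TOP2A 0.017 without U87, ECT2 0.023 without U251 and TOP2A 0.0034 without HT1080. NUF2 was at 0.0046 without MDA231 PS 3 and CB 2, 0.0091 without DU145 PS 1 and CB 3, and 0.016 without all 6 arrays that stand apart.

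The counts of called members moved more within lines. The share of all genes called was not taken for the counts given here and below. They describe how the members' calls moved and are not set against a background. Pseudocount 1 gave 4 higher in U87, 1 lower in U251 and 0 higher in MDA435, and pseudocount 64 gave 1 higher in MDA231. Quantile normalization gave 1 lower in MDA231. Equal medians gave 1 lower in U251, 0 lower in DU145, 2 higher in MDA231 and 2 lower in MDA435. Without a filter 1 was lower in U251 and 0 higher in MDA435. The mean of all probe sets gave 4 lower in U87, 1 lower in U251 and 7 higher in HT1080. Without marked probe sets, which left 32 members, 11 were higher in the average, 4 higher and 1 lower in U87, 2 and 1 in U251, 5 and 1 in HT1080, 1 higher in DU145 and 2 lower in MDA435, and the large minus small difference was -0.56. Array weights gave 5 lower in U87, 8 higher in U251, 20 higher in HT1080, 4 higher and 2 lower in DU145, 5 and 3 in MDA231, 5 higher in MDA435 and 1 member that differed between lines. Lines fitted alone gave 2 higher and 0 lower in U87, 0 lower in DU145, and 0 higher and 0 lower in MDA435.

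The fit with the replicate number as a block (12 residual degrees of freedom) gave 1 lower in U251, 6 higher in HT1080, 0 lower in DU145 and 1 lower in MDA435, and CENPE lost its call (adjusted p = 0.0697); it changed no other averaged call. The samples share only a number: 3 of 18 pairs correlated best with their own number.

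Without MDA231 PS 3 and CB 2, 1 member was higher in DU145, 1 in MDA231 and 2 in MDA435. Leaving out MDA435 PS 3 and CB 1, or DU145 PS 1 and CB 3, are choices made after seeing the data, as is leaving out all 6: the first gave 0 higher and 1 lower in MDA435, the second 0 lower in DU145, and all 6 gave 5 lower in U87, 0 lower in DU145, 1 higher in MDA231, and 0 higher and 2 lower in MDA435. Over the 36 fits without 1 array, the averaged counts were 18 to 23 higher and 5 to 7 lower. Within lines they were 2 to 9 higher and 0 to 5 lower in U87, 1 to 4 and 0 to 3 in U251, 3 to 12 and 2 to 3 in HT1080, 0 to 1 and 0 to 1 in DU145, 0 to 2 and 0 to 1 in MDA231, and 0 to 1 and 1 to 4 in MDA435. In these fits the log2 changes of members that crossed 0 spanned -0.049 to 0.036 for NUF2, -0.0032 to 0.065 for BUB1B, -0.037 to 0.0029 for ECT2 and -0.055 to 0.0070 for TOP2A. Signal near the floor limits INCENP. Groups of 3 arrays were too small for a check of single outliers.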
